A study of Mus musculus with 8 samples.

Results

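The homeobox genes of the Hoxa, Hoxb, Hoxc and Hoxd clusters were followed in mouse bone marrow and fetal liver with and without collagen XVIII. Members were all genes whose symbol is Hox, a cluster letter from a to d, and a number, read from Affymetrix Mouse Genome 430.2 array probe sets that name a single gene. This rule gave 33 of the 18194 genes measured, each represented by its brightest probe set by the mean over the 8 arrays. RefSeq lists 39 such genes for the mouse. Hoxb8 and Hoxd4 were named only by probe sets that also name a second gene and are not members.

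The 8 arrays form 4 groups of 2. Wild-type bone marrow and Col18a1-/- (mutant or knockout) bone marrow came from male mice 3 months old, and wild-type fetal liver and Col18a1-/- fetal liver came from embryos at day 14.5 (E14.5), whose sex was not determined. All mice were of the C57B6/J strain, and the titles name the wild type by that strain. The mutants lack both copies of Col18a1, the gene of the collagen XVIII core protein from which endostatin is cut in the whole animal. Each array held the pooled tissue of 2 littermates, so the spread between the 2 arrays of a group is a spread between pools. The study set the genotypes side by side within each tissue. Levels below are log2 of the deposited intensity, and a difference of 1 is a doubling of signal.

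Col18a1 was lower in both mutant groups on its brightest probe set, with a mutant minus wild-type difference of -2.03 ± 0.13 in bone marrow (standard error; limma adjusted p = 0.000787) and of -1.003 ± 0.13 in fetal liver (adjusted p = 0.0315), where the mutant arrays read 8.17 and 8.06 and the call was lost when any of 5 arrays was left out in turn (adjusted p up to 0.116). A second Col18a1 probe set gave -1.34 in bone marrow and -1.62 in fetal liver (limma adjusted p = 0.0227 and 0.0034 over all probe sets). On that scale the brightest one had adjusted p = 0.00268 in bone marrow and 0.0546 in fetal liver. How these probe sets lie to the deleted stretch was not known here. The hepatocyte gene Alb read 14.35 to 14.51 in fetal liver and 3.85 to 4.95 in bone marrow. The summed intensity of the neutrophil markers was 134600 to 139100 in bone marrow and 11480 to 15700 in fetal liver, and all 10 of those markers were called lower in fetal liver. All 10 B lineage markers were also called lower there, while 8 of 11 mesenchymal markers were called higher and 2 lower (Cxcl12 and Lepr), and 8 of 9 endothelial markers higher and 1 lower (Pecam1). Over all genes tested, 44.2% were called higher in fetal liver and 30.2% lower. Some markers passed the low-value filter (5 on at least 2 arrays) only through the tissue where they were higher. Among them were Ebf1, Ms4a1, Rag1 and Cd79a in bone marrow. In fetal liver they included Alb, Afp, Foxa2, Hba-x, Tek, Tie1, Lyve1 and Postn. Xist, given below, passed only through wild-type fetal liver. These are whole tissues of mixed cells, so fewer cells of a type and less RNA per cell cannot be told apart. Xist, which is transcribed from the inactive X chromosome of female cells, read 11.04 and 11.22 in wild-type fetal liver, 4.97 and 4.77 in mutant fetal liver and 4.61 to 5.03 in bone marrow. Genotype and this sex-linked difference cannot be told apart in fetal liver.

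Hox proteins are homeodomain transcription factors that set position along the body axis. Their genes lie in clusters in which genes of lower paralog number sit toward the 3′ end and are generally switched on earlier and further forward in the embryo. In blood formation, genes of the Hoxa and Hoxb clusters are active in stem cells and early progenitors and are turned down as cells mature. Hox proteins bind DNA with cofactors of the TALE homeodomain family, such as Meis and Pbx proteins, while Trithorax group proteins such as Kmt2a keep the genes active and Polycomb group proteins keep them silent.

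The promoters of the 3 Hoxa genes called higher in fetal liver are shown first, because promoter CpG content is a known feature of genes that Trithorax and Polycomb proteins bind. Each is the 250 bases before the RefSeq start on assembly GRCm38.p6, on the minus strand of chromosome 6, written 5′ to 3′ with CpG dinucleotides in capitals. Hoxa3 is at chr6:52213068-52213317, Hoxa5 at chr6:52204588-52204837 and Hoxa9 at chr6:52227371-52227620.
Hoxa3: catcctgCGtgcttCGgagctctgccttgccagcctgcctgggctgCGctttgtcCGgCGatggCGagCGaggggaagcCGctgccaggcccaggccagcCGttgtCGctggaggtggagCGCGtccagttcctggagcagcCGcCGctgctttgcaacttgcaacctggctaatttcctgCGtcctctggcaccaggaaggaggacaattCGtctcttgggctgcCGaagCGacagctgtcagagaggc
Hoxa5: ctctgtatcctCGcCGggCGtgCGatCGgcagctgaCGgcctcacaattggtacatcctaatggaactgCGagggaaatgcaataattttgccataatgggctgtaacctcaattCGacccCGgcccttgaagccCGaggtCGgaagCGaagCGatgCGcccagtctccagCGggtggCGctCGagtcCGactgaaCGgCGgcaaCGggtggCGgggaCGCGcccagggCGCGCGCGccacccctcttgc
Hoxa9: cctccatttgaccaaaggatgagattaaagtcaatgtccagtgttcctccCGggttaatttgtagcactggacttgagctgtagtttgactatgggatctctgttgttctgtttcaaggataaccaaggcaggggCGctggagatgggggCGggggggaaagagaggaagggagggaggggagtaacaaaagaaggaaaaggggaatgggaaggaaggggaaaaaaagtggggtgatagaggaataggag
The Hoxa5 window held 28 CpG at 63.6% GC, the Hoxa3 window 18 at 64.8% GC and the Hoxa9 window 3 at 49.6% GC. RefSeq gave 21 such windows for 19 members, with a median of 13 CpG and a range of 2 to 35, against a median of 6 over all 32851 windows. The table used here held no window for Hoxb2, Hoxb3 or Hoxc5. On either strand, the composite PBX-HOX motif TGATNNAT was found in 3 of the 21 member windows (14.3%; 7.68% of all windows), the MEIS motif TGACAG in 2 (9.52%; 15.9% of all) the CCAAT box CCAAT in 11 (52.4%; 33.8% of all) and the TATA box TATAAA in 2 (9.52%; 12.4% of all). Matches were counted motif by motif, whether or not they overlapped another. Hoxa3 had a TGACAG on the minus strand of the window, Hoxa5 had a CCAAT likewise, and Hoxa9 had none of the motifs searched.

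Between the tissues, 6 Hox genes were called higher in fetal liver than in bone marrow over the average of both genotypes, and none was called lower. They were Hoxb2, Hoxa5, Hoxc5, Hoxa3, Hoxb3 and Hoxa9, with differences from 1.38 down to 0.18 on the log2 scale. They made up 46.2% of the 13 members bright enough to test, where a gene was tested if it reached 5 on at least 2 arrays. Over all 13136 genes tested, 74.3% were called between the tissues and 44.2% were called higher in fetal liver, so the share of Hox genes called higher was near that of all genes. No member of the 13 was called lower, against 30.2% of all genes, and 3 of the 6 called higher, Hoxb2, Hoxc5 and Hoxa3, had fewer than 2 bone marrow arrays at 5 and passed the filter only through fetal liver. Hoxa9 was called higher on its brightest probe set, while its second probe set gave -2.22 and the mean of both gave -1.02. Without mutant fetal liver replicate 2, 3 members were called. The median difference of the tested members was 0.11, against 0.13 over all genes tested. A call is an adjusted p under 0.05 in limma with Benjamini-Hochberg adjustment over all genes tested.

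Hoxb2, an anterior gene of the Hoxb cluster, had the largest difference. It read 4.27 and 4.51 in wild-type bone marrow, 4.58 and 4.68 in mutant bone marrow, 5.99 and 5.71 in wild-type fetal liver, and 6.19 and 5.67 in mutant fetal liver. Every fetal liver array lay above every bone marrow array, and no bone marrow array reached 5, so Hoxb2 was tested only because of its fetal liver levels. The means were 4.51 ± 0.18 (SD, n = 4) in bone marrow and 5.89 ± 0.24 (SD, n = 4) in fetal liver, a 2.60-fold difference (1.38 ± 0.12, standard error; limma adjusted p = 9.64e-06). It was called within each genotype, at 1.46 ± 0.18 in the wild type (adjusted p = 9.49e-05) and 1.30 ± 0.18 in the mutant (adjusted p = 0.000211).

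Hoxa5, a gene with a described role in the balance of red cell and myeloid formation, followed. Its brightest probe set read 6.75 and 6.37 in wild-type bone marrow, 6.30 and 6.50 in mutant bone marrow, 7.41 and 7.41 in wild-type fetal liver, and 7.39 and 7.20 in mutant fetal liver. The tissues did not overlap, and the 4 fetal liver arrays were close together. The difference was 0.87 ± 0.10, or 1.83-fold (adjusted p = 4.27e-05), with 0.85 in the wild type (adjusted p = 0.000626) and 0.90 in the mutant (adjusted p = 0.000493). A second probe set gave 0.96 ± 0.11, with bone marrow at 5.33 to 5.64 and fetal liver at 6.31 to 6.67. In this fit Hoxb2 and Hoxa5 were the only members called in each genotype separately.

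Hoxc5, Hoxa3 and Hoxb3 differed by less. Hoxc5 read 4.34, 4.51, 4.49 and 4.60 in bone marrow (wild type, then mutant) and 4.75, 5.07, 4.74 and 5.04 in fetal liver. The tissues did not overlap, and the gene was tested only through 2 fetal liver arrays. The difference was 0.41 ± 0.10, 1.33-fold (limma adjusted p = 0.00492), while 2 dimmer probe sets of Hoxc5 gave -0.05 and -0.06 and were not called.

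Hoxa3, an anterior Hoxa gene known for its part in the pharyngeal organs, read 5.17, 4.84, 4.73 and 4.72 in bone marrow and 5.60, 5.17, 4.97 and 5.31 in fetal liver. The ranges overlapped, because the highest wild-type bone marrow array stood above one mutant fetal liver array. Only 1 bone marrow array reached 5, so Hoxa3 too was tested through its fetal liver levels. The difference was 0.40 ± 0.12, 1.32-fold (adjusted p = 0.0167), and the call was lost when any of 3 arrays was left out (adjusted p up to 0.0626; without wild-type bone marrow replicate 2, wild-type fetal liver replicate 1 or mutant fetal liver replicate 2). The other 3 probe sets of Hoxa3 gave 0.73, 0.22 and -0.04. In RefSeq the span of Hoxa3 overlaps Hoxa4, Hoxa5 and Hoxa6.

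Hoxb3, which is active in primitive blood cells together with Hoxb4, read 5.36, 5.49, 5.52 and 5.76 in bone marrow and 5.87, 5.81, 5.88 and 5.71 in fetal liver. One mutant bone marrow array lay above one mutant fetal liver array, so the tissues overlapped. The difference was 0.28 ± 0.08, 1.22-fold (adjusted p = 0.0114). A dimmer Hoxb3 probe set, at 3.61 to 3.90 in bone marrow and 4.52 to 5.30 in fetal liver, gave a larger difference of 1.01 ± 0.14, 2.01-fold, with no overlap. Hoxb3 spans Hoxb4 and the microRNA gene Mir10a in RefSeq, and no probe set used here names a microRNA of the clusters.

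**Figure D1:**
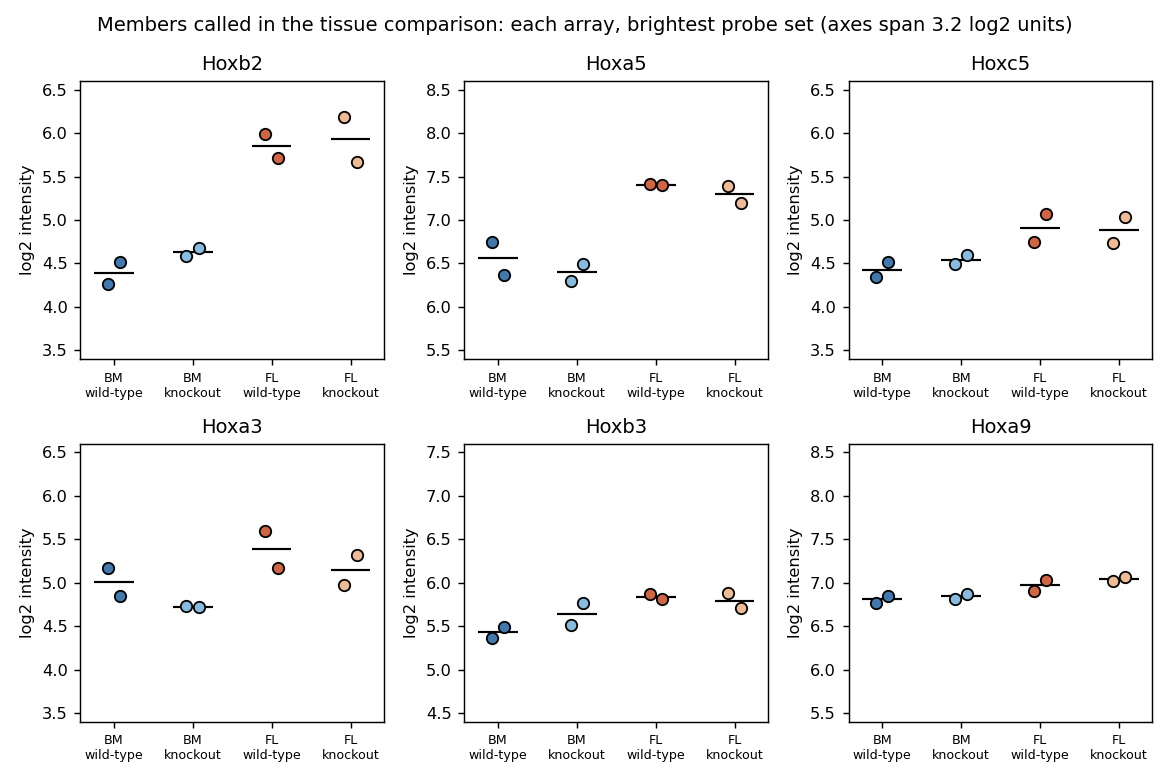
Log2 intensity of the 6 Hox genes called between the tissues, 1 panel a gene and 1 point an array, grouped as wild-type and mutant bone marrow and wild-type and mutant fetal liver, with lines at the group means and every panel spanning the same number of log2 units. The fetal liver points of Hoxb2 (5.67 to 6.19) and Hoxa5 (7.20 to 7.41) stand clear of bone marrow, while those of Hoxa3 and Hoxb3 overlap it.

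Hoxa9, the Hox gene most closely tied to blood stem cells and myeloid leukaemia, gave opposite answers on its probe sets. The brightest by the mean over all arrays read 6.77, 6.85, 6.82 and 6.87 in bone marrow and 6.91, 7.03, 7.02 and 7.07 in fetal liver. The tissues did not overlap, and the difference was small at 0.18 ± 0.06, 1.13-fold (limma adjusted p = 0.0319). The call was lost on leaving out any of 6 of the 8 arrays in turn (adjusted p up to 0.111), and also with no filter on low values (adjusted p = 0.051).

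The second Hoxa9 probe set read 7.21, 7.15, 7.15 and 7.12 in bone marrow and 4.82, 4.99, 4.77 and 5.19 in fetal liver. Every fetal liver array lay far below every bone marrow array. The difference was -2.22 ± 0.10, a 4.65-fold lower signal in fetal liver (adjusted p = 1.22e-07 over all 45101 probe sets, of which 24.4% were called lower), with -2.28 in the wild type and -2.16 in the mutant. Over all probe sets the brightest one was not called (adjusted p = 0.0763). The 2 probe sets differed in their tissue difference by 2.40. Among 5967 genes with more than 1 probe set passing the filter, 139 (2.33%) had probe sets that differed by at least as much, and 586 (9.82%) had probe sets called in opposite directions, Hoxa9 not among them. The direction of the Hoxa9 value between the tissues was set by the choice of probe set, and the mean of both gave -1.02. Which parts of the transcript each probe set matches was not examined.

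**Figure D2:**
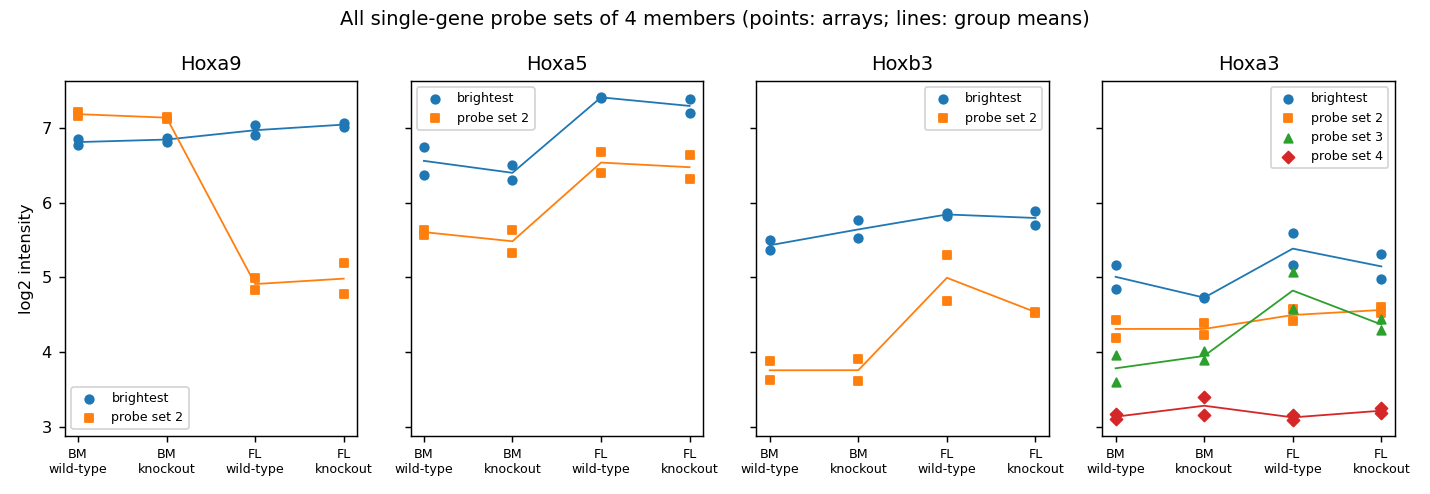
Log2 intensity on every single-gene probe set of Hoxa9, Hoxa5, Hoxb3 and Hoxa3, 1 panel a gene, with a point for each array and lines through the group means of bone marrow (BM) and fetal liver (FL), wild type and knockout. The second Hoxa9 probe set falls from 7.12 to 7.21 in bone marrow to 4.77 to 5.19 in fetal liver while the brightest does not, and both Hoxa5 probe sets are higher in fetal liver.

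Of the 11 members with more than 1 probe set, 6 had all of them higher in fetal liver, 4 had opposite signs (Hoxa3, Hoxa9, Hoxa10 and Hoxc5), and Hoxb4 had both lower. Hoxb4, which expands blood stem cells when overexpressed, read 5.87, 5.96, 5.90 and 6.14 in bone marrow and 6.17, 5.67, 5.98 and 5.75 in fetal liver. These ranges overlapped throughout, and the difference was -0.07 ± 0.12 (adjusted p = 0.59). The other 6 members that were tested and not called were Hoxa7, Hoxb6, Hoxc6, Hoxc9, Hoxd9 and Hoxd13, with differences of 0.02 to 0.11 and adjusted p of 0.348 to 0.755. Hoxc9 had the tightest of these levels, at 6.13 to 6.20 in bone marrow and 6.14 to 6.24 in fetal liver.

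Within the wild type alone, 4 of the 13 tested members were called higher in fetal liver, namely Hoxb2, Hoxa5, Hoxc5 and Hoxb3, and none lower (all genes tested: 65.9% called, 39.2% higher and 26.8% lower). Within the mutant alone, Hoxb2 and Hoxa5 were called higher and none lower (all genes tested: 63.8% called, 36.6% higher and 27.1% lower). Hoxc5 gave 0.49 in the wild type (adjusted p = 0.0149) and 0.34 in the mutant (adjusted p = 0.0619), and the test of that difference did not pass (interaction -0.14, adjusted p = 0.776). Hoxb3 gave 0.41 (adjusted p = 0.0114) and 0.15 (adjusted p = 0.27), with an interaction of -0.26 (adjusted p = 0.466). These counts moved with single arrays: without wild-type bone marrow replicate 1 the wild type gave 2 calls, and without wild-type or mutant fetal liver replicate 1 the mutant gave 4. All 4 sex-linked genes tested were called between the tissues in the wild type, and 0 in the mutant. Tissue and this sex-linked difference cannot be told apart in the wild type, and the sex-linked difference also enters the interactions.

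The remaining 20 members stayed under the filter, with levels of 2.47 to 5.08, and 18 of them were under 5 on every array. The filter lay between Hoxd9, whose second-highest array read 5.00, and Hoxc4, whose second-highest read 4.99. Hoxb5, a gene used to mark long-term blood stem cells in mice, read 4.35, 4.47, 4.62 and 4.60 in bone marrow and 4.64, 4.82, 5.08 and 4.86 in fetal liver, with no overlap. Hoxa2 (2.47 to 2.69 in bone marrow, 2.77 to 3.28 in fetal liver) and Hoxd11 (2.84 to 2.91 and 2.92 to 3.27) were likewise higher on every fetal liver array, at levels near the bottom of the array's range. In all, 7 of 33 members had all 4 fetal liver arrays above all 4 bone marrow arrays, none had them all below, and 26 overlapped. The matching share over all 18194 genes was not worked out. Among the 13 tested members this was 4 (30.8%) above and 0 below, against 39.5% above and 28% below over all genes tested. When all 18194 genes were fitted with no filter, 11 of the 33 members (33.3%) were called higher and none lower, against 36.7% higher and 22.4% lower of all genes. The same fit called 9 members higher in the wild type alone (30.5% of all genes) and 4 in the mutant alone (28% of all genes).

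By position along the clusters, the largest differences were those of Hoxb2 and Hoxa5, with paralog numbers 2 and 5. The 13 members with paralog numbers 1 to 5, of which 6 were tested, had a median difference of 0.30 (-0.07 to 1.38). The 6 members numbered 6 to 8 (3 tested) had a median of 0.11 (0.03 to 0.16), and the 14 members numbered 9 to 13 (4 tested) had a median of 0.12 (-0.08 to 0.36). All fetal liver arrays lay above bone marrow for 5 of the 13, 0 of the 6 and 2 of the 14. These counts include members under the filter, and no matching share over all genes was worked out. Hoxa5, Hoxb5 and Hoxc5, all without overlap, sit at the upper edge of the first range, so the counts depend on where that range ends. Spearman's rho between paralog number and tissue difference was -0.28 over the 33 members, as a description across genes that share arrays and neighbouring DNA. Within the clusters it was -0.35 in Hoxa (9 members), -0.42 in Hoxb (9 members) and -0.57 in Hoxc (7 members), and of the other sign in Hoxd, at 0.14 (8 members). The medians of the clusters were 0.18 for Hoxa on chromosome 6, 0.22 for Hoxb on chromosome 11, 0.13 for Hoxc on chromosome 15 and 0.13 for Hoxd on chromosome 2. Of the tested members, 4 lay in Hoxa, 4 in Hoxb, 3 in Hoxc and 2 in Hoxd.

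**Figure D3:**
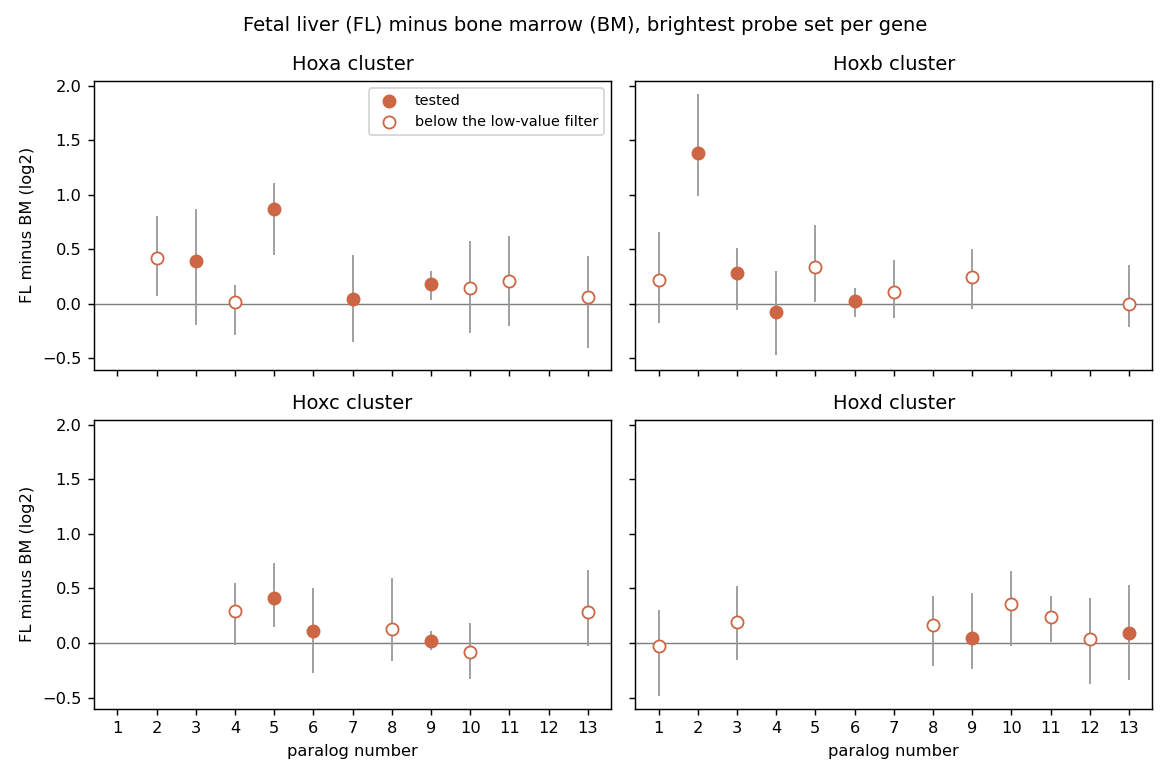
Fetal liver minus bone marrow difference (log2, averaged over genotypes) of the 33 members by paralog number, 1 panel a cluster, with filled points for tested members and open points for those under the filter. Gray bars run from the lowest fetal liver minus the highest bone marrow array to the highest fetal liver minus the lowest bone marrow array; Hoxb2 at 1.38 and Hoxa5 at 0.87 stand highest.

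No Hox gene was called between Col18a1-/- and wild type in either tissue. In bone marrow 0 of the 13 tested members were called (0.411% of all genes tested were), and none had an unadjusted p under 0.05 in limma. Differences ran from -0.28 for Hoxa3 to 0.24 for Hoxb2, with adjusted p of 0.843 to 0.992. In fetal liver 0 of 13 were called (0.32% of all genes tested were), again with none at an unadjusted p under 0.05. Differences ran from -0.24 for Hoxa3 to 0.25 for Hoxc6, with adjusted p of 0.305 to 0.955. Over the 13 genes, the outermost bounds of the 95% intervals of the fit were -0.68 (Hoxa3) and 0.64 (Hoxb2) in bone marrow. In fetal liver they were -0.64 (Hoxa3) and 0.57 (Hoxc6). Interval widths ran from 0.40 to 0.81, so the size of difference within the error of 2 arrays a group varied by gene.

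Hoxa5 differed by -0.16 in bone marrow (95% interval -0.48 to 0.16) and by -0.11 in fetal liver (-0.43 to 0.20). Hoxb4 differed by 0.10 (-0.28 to 0.49) and by -0.06 (-0.45 to 0.33). Hoxc9 had one of the narrowest intervals, at -0.01 in bone marrow (-0.21 to 0.19) and 0.04 in fetal liver (-0.16 to 0.24). For Hoxa9 the brightest probe set gave 0.03 in bone marrow (-0.17 to 0.24) and 0.07 in fetal liver (-0.13 to 0.28), and the second gave -0.05 and 0.07.

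The genotype difference was also compared between the tissues, as an interaction. None of the 13 members was called (0.0914% of all genes tested were), and 1 had an unadjusted p under 0.05. This was Hoxa7, a middle gene of the Hoxa cluster, at 5.78 and 5.98 in wild-type and 5.53 and 5.80 in mutant bone marrow, and 5.77 and 5.63 in wild-type and 5.88 and 5.98 in mutant fetal liver. Its mutant arrays were lower on average in bone marrow (-0.21) and higher in fetal liver (0.23), and the interaction was 0.44 ± 0.17 (adjusted p = 0.282). The summed intensity of the megakaryocyte markers was 15870 to 19060 in wild-type and 7914 to 8339 in mutant bone marrow, and its part in the Hox values was not tested.

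**Figure D4:**
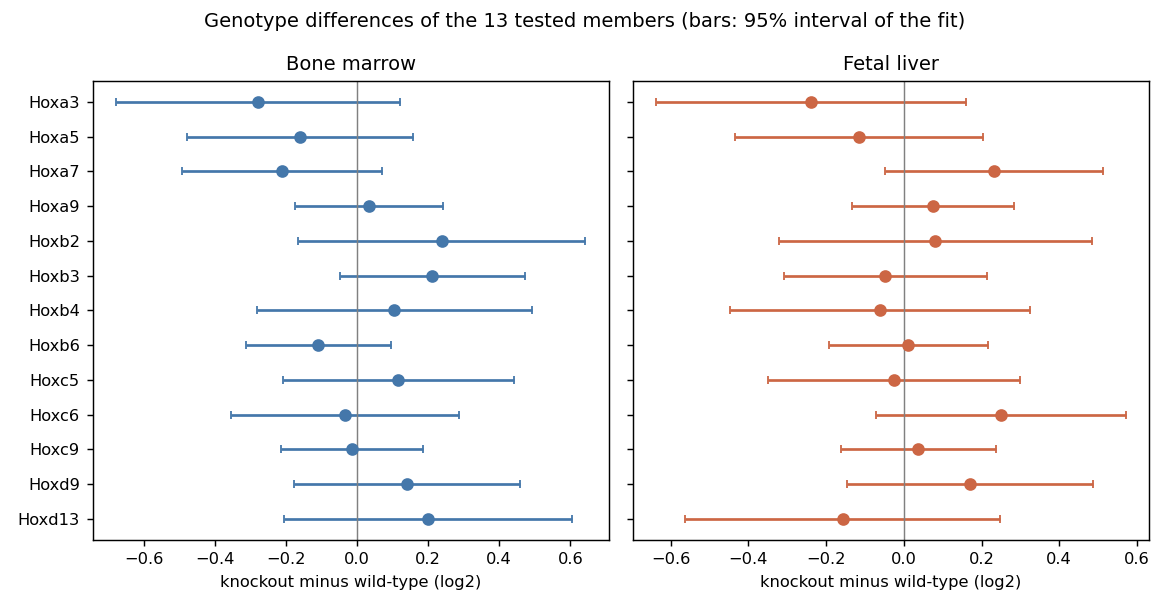
Mutant minus wild-type difference (log2) of the 13 tested members in bone marrow and in fetal liver, with bars for the 95% interval of the limma fit. Every bar crosses 0, and the intervals reach from -0.68 to 0.64.

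Among the cofactors that bind DNA with Hox proteins, Meis2, Pbx3, Meis1 and Pbx2 were called higher in fetal liver and Pknox1 lower. They are 5 of 7 TALE genes tested (9 listed, 8 on the array), with 74.3% of all genes tested called, 44.2% higher and 30.2% lower. The median difference of the 7 was 0.53. Meis2 read 3.71 to 4.51 in bone marrow and 5.39 to 6.0 in fetal liver, a difference of 1.53 ± 0.19 (limma adjusted p = 8.7e-05), and all 4 of its probe sets were higher. No bone marrow array of Meis2 reached 5, so it was tested only because of its fetal liver levels. Pbx3, a partner of Hoxa9 in leukaemia, read 7.49 to 7.67 and 8.72 to 9.04, a difference of 1.34 ± 0.08 (adjusted p = 6.86e-07). Meis1, the cofactor most tied to Hoxa9 in blood stem cells, read 5.65 to 5.99 and 6.27 to 6.95, a difference of 0.72 ± 0.11 (adjusted p = 0.000236), but another of its probe sets gave -0.39 (adjusted p = 0.0267). Pbx2 gave 0.53 ± 0.08, with other probe sets at -0.14 and 0.12. Pknox1, also called Prep1, read 8.40 to 8.65 in bone marrow and 7.69 to 7.97 in fetal liver, a difference of -0.71 ± 0.08, and all 3 of its probe sets were lower.

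The Trithorax, MLL complex and CDX genes that switch on or maintain Hox genes were split. Of 23 listed, 22 were on the array and 19 were tested, of which 5 were called higher in fetal liver and 9 lower (73.7% called, near the 74.3% of all genes tested), with a median difference of -0.11. Kmt2a, the MLL methyltransferase that maintains Hox expression in blood, read 8.69 to 8.99 in bone marrow and 6.55 to 7.06 in fetal liver, a difference of -2.05 ± 0.07 (limma adjusted p = 1.65e-08), and its other probe set gave -0.66. Its fusion partners in leukaemia went both ways, with Mllt3 at 1.40 ± 0.09 and Aff1 at -0.83, Mllt10 at -0.55 and Aff4 at -0.49. The MLL complex core subunits Ash2l (0.76) and Wdr5 (0.49) were called higher. Cdx1, Cdx2 and Cdx4 did not pass the filter. Polycomb genes were also split: 29 of 31 listed were tested, 9 were called higher and 12 lower (72.4% called, again near that of all genes), with a median of -0.08. Pcgf6 (1.11) and the deubiquitinase subunit Bap1 (0.62) were among the higher, and Phc3 (-1.21), Cbx7 (-0.99) and the methyltransferase Ezh1 (-0.72) among the lower. Pcgf2, among the 29, was under 5 on every bone marrow array and was tested only through fetal liver. No gene of these 3 lists was called between genotypes in either tissue (all genes tested: 0.411% called in bone marrow and 0.32% in fetal liver). At an unadjusted limma p under 0.05 there were none in bone marrow and 1 TALE gene, 11 activators and 5 Polycomb genes in fetal liver, where sex-linked levels differ between the groups. The share of all genes under that threshold was not worked out, so these counts cannot be read as particular to the lists. The absence of adjusted calls among activators and Polycomb genes in fetal liver did not hold without mutant fetal liver replicate 2.

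**Figure D5:**
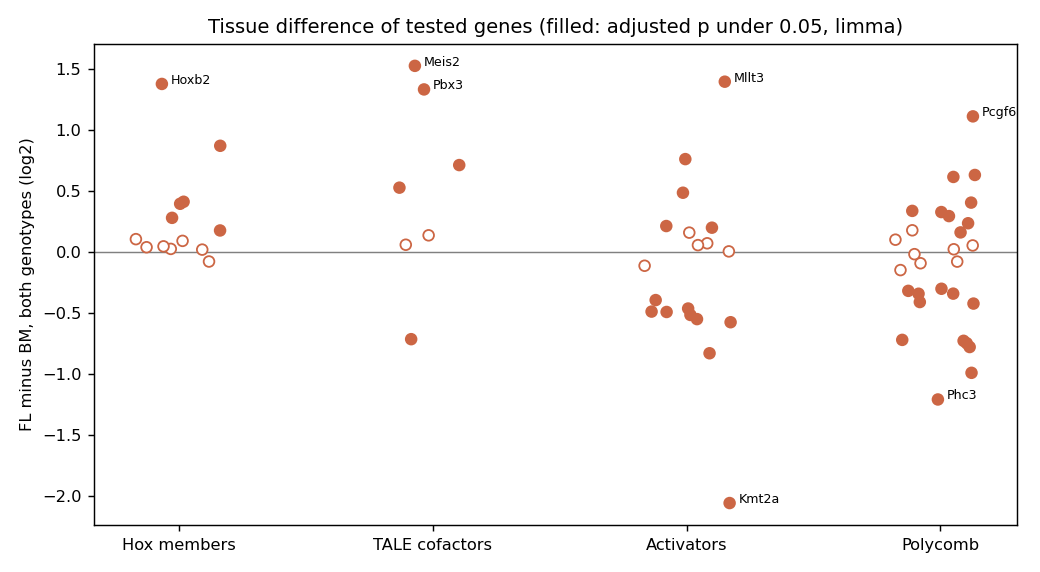
Fetal liver minus bone marrow difference (log2, averaged over genotypes) of the tested Hox genes, TALE cofactors, activators and Polycomb genes, 1 point a gene, with filled points for called genes. The TALE genes lie mostly above 0, with Meis2 (tested only through fetal liver) at 1.53, while activators run from Kmt2a at -2.05 to Mllt3 at 1.40.

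Markers of cells that could carry Hox transcripts moved between the tissues as well. The stem and progenitor markers summed to 8553 to 9020 in bone marrow and 2987 to 3083 in fetal liver, with 4 of 10 called higher and 5 lower (all genes tested: 44.2% higher and 30.2% lower). Most of that sum came from Myb (12.53 to 12.63 in bone marrow, 10.77 to 10.79 in fetal liver) and Cd48 (10.45 to 10.65 and 6.07 to 6.50), while Mecom (1.91) and Hlf (1.78) were higher in fetal liver. Mecom and Procr, another of these markers, were under 5 on every bone marrow array and were tested only through fetal liver. The mesenchymal markers summed to 3142 to 5405 in bone marrow and 9615 to 12970 in fetal liver, and the endothelial markers to 630.3 to 808.6 and 2385 to 2665. The intensities of the 33 Hox genes summed to 849.4 to 920.5 in bone marrow and 1052 to 1101 in fetal liver. The part of these markers in the Hox differences was not tested.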

How the data were processed

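RNA of 8 array samples was measured on Affymetrix Mouse Genome 430.2 arrays. The deposited values are intensity on a linear scale, made by the authors with RMA, per the submitters' processing notes, which gives background-corrected, quantile-normalized summaries with no zeros and compresses low signals. They were taken to log2. Probe sets were named from the platform annotation: 34958 name 1 gene, 932 several and 9211 none. The brightest single-gene probe set by mean stood for each gene. Levels of different probe sets were ranked to choose the brightest of a gene and added in the summed intensities. In the main fit each difference was taken within the same probe set. A gene was tested at 5 or more on at least 2 arrays, which left 13136 of 18194 genes. limma 3.58.1 in R 4.3.3 fitted 1 mean per group over all 8 arrays (4 residual degrees of freedom), with two-sided moderated tests and Benjamini-Hochberg adjustment at 0.05. The fit was run on simulated data drawn under its own assumptions, with far fewer genes changed than were called between these tissues. That run cannot test those assumptions. Fetal liver was compared with bone marrow in each genotype and on average, mutant with wild type in each tissue, and these genotype differences with each other. Nothing in the values marks a depth, so the number of arrays limits the precision; median intensity was 40.8 to 42.6 and the correlation of replicates 0.992 to 0.997. Members called in any comparison, or differing by 1 or more, were described in full, with at most 4 genes per direction from each other list. Members and lists were chosen with earlier results of these data known. Alternatives covered the filter, the probe set rule, the scaling, the fit and each array left out.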

Additional observations from a re-analysis of the deposited data

Results flagged for a closer look

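The genotype difference of 4 sex-linked genes differed between the tissues by the interaction test of limma. The interaction (fetal liver mutant minus wild type, less the same in bone marrow, log2) was 6.44 for Eif2s3y, 4.24 for Uty and 4.00 for Kdm5d, all Y-linked, and -6.26 for Xist. Eif2s3y read 3.29 and 3.00 in wild-type fetal liver and 9.38 to 10.03 on the other 6 arrays. No Hox gene, TALE cofactor, activator or Polycomb gene met the same test.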

How the results depend on the processing

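Of 358 alternative values of 27 results, 336 kept their call or stayed within 1.5 times the count, leave-one-out fits aside. The count of Hox genes called between tissues depended on the filter: averaged over genotypes 6 became 11 with no filter and 2 with a filter at 6, where 4 members passed; the wild type gave 4, then 9 and 1; the mutant gave 2, then 4 and 1. With the mean of a gene's probe sets the mutant gave 4 calls, 1 of them lower, and at an adjusted p under 0.10 it gave 6. Leaving out each array in turn gave 3 to 6 on average, 2 to 5 in the wild type and 2 to 4 in the mutant. Hoxa9 turned to -1.02 with the mean of its probe sets. TALE calls went from 5 to 3 with the mean of probe sets in the wild type, and from 5 to 3 with the brightest _at probe set in the mutant. Between genotypes in fetal liver, activator calls went from 0 to 1 with the mean of probe sets, the brightest _at probe set or every probe set tested, and to 2 with an eBayes trend, with log2(intensity + 16) or at 0.10; Polycomb calls went from 0 to 2 with a trend and 3 at 0.10. Leaving out an array gave 0 to 2 for both lists. Col18a1 in fetal liver kept -1.003 but lost its call with array weights (adjusted p = 0.106), with only the arrays compared (0.157) and with the replicate block (0.0559), and ran from -1.06 to -0.95 with an array left out. The causes of these changes were not tested. With the replicate number as a block, 6 Hox genes were called on average, 4 in the wild type and 3 in the mutant. Same-numbered arrays did not deviate together across genes (correlations -0.12 to -0.00078), which cannot show whether the samples were paired in some way. No Hox gene was called between genotypes under any alternative run.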

Other observations

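Genes beside the clusters were called about as often as all genes. Of 21 neighbours and cluster transcripts listed, 15 were on the array and 9 were tested. Of these, 5 were called higher in fetal liver and 2 lower (77.8% called, against 74.3% of all genes tested). Ttll6, among the 9, was under 5 on every bone marrow array and was tested only through fetal liver. Snx10 and Skap2, which lie beside the Hoxa cluster, were the 2 lower ones: Snx10 read 8.55 to 8.81 in bone marrow and 6.21 to 6.74 in fetal liver (-2.22 ± 0.07; limma adjusted p = 8.33e-09), and Skap2 read 10.43 to 10.73 and 8.89 to 9.05 (-1.53 ± 0.08; adjusted p = 1.99e-07). Hibadh (0.58), also beside Hoxa, and Mtx2 (0.66), beside Hoxd, were called higher. The homeobox gene Evx1, next to Hoxa13, gave 0.20 (adjusted p = 0.0366). The antisense transcripts Hoxa11os, Hoxb5os and Hoxd3os1 did not pass the filter. The probe set that names both Hoxb8 and Hoxb7 read 3.34 to 3.92, and the one that names both Hoxd4 and Hoxd3 read 5.66 to 6.21.

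The spread between replicate arrays was described for the Hox genes and for all genes. The median SD over members was 0.12 against 0.06 in wild-type bone marrow, 0.10 against 0.08 in wild-type fetal liver and 0.13 against 0.11 in mutant fetal liver, and it was 0.07 in both in mutant bone marrow.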
